A study of Mus musculus with 6 samples.

Results

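*Myl1* encodes the essential light chains of fast skeletal myosin, which wrap around the neck of the myosin head. The gene makes a long form, MLC1F, and a short form, MLC3F, from separate promoters, with first exons of their own joined by alternative splicing to a shared set of downstream exons. Transcription of the gene is a mark of muscle differentiation. Hnrnpa2b1 is a nuclear RNA-binding protein of the hnRNP family, which coats pre-mRNA and takes part in splicing, stability and transport of RNA. Its position on *Myl1* RNA was read here from eCLIP, short for enhanced crosslinking and immunoprecipitation. The method bonds protein to the RNA in contact with it by UV light, recovers the protein with an antibody and sequences the attached RNA fragments.

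The members were the eCLIP peaks on the minus strand of chromosome 1 that lay wholly inside chr1:66970000-66992500 (mm9), a window of 22.5 kb around *Myl1*. The RNA begins at the high coordinate. Of the 3895 peaks in the 4 lists, 40 met this rule. The gene was chosen by its listed peaks, which were numerous in the differentiated lists and missing from the others, so the numbers of peaks, the presence and absence of peaks in each state, and their enrichments are a description and carry no test.

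C2C12 is an established mouse muscle line whose dividing myoblasts fuse to myotubes in low serum. All libraries came from this line, with no genetic change or drug named, and with the same antibody to Hnrnpa2b1. Myoblasts (C2C12, replicates A and B) were grown in 20% serum, and myotubes (differentiated C2C12, replicates A and B) were kept in 5% horse serum for 8 to 10 days per the labels. The published methods name fewer days, and lysis of whole cells where the labels name isolated nuclei, and the lists cannot settle which applies. The input samples entered only through the enrichment values. The labels list 1 input per state and the published methods name an input for each replicate, so the enrichments of both replicates may share their denominator. Read counts are not in the lists, so the depth behind each peak is unknown.

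*Myl1* carried peaks in both myotube libraries and in neither myoblast library. For C2C12 the lists of 594 (replicate A) and 591 (replicate B) peaks each held 0 on *Myl1*. The differentiated C2C12 lists held 28 in replicate A and 12 in replicate B, among 1499 and 1211. The states did not overlap, which is the pattern the gene was chosen for. Of the 517 groups of same-strand peaks up to 10 kb apart, 20.5% had peaks in both myotube replicates and in no myoblast list. The myotube replicates differed by more than 1.5 times, and their mean was 20 ± 11.3 peaks (SD, n = 2). Without replicate A the value is 12. The peaks made up 1.87% of the list in replicate A (exact Clopper-Pearson 95% interval 1.24 to 2.69) and 0.991% in replicate B (0.513 to 1.72), with intervals for counting error alone, as if adjoining peaks were independent. They covered 887 nt in replicate A and 492 nt in replicate B, a mean of 689.5 ± 279 nt (SD, n = 2).

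Absence of *Myl1* from the myoblast lists means that no peak passed the minimum of the lists, whose −log10 p values start at 5. It does not show that the RNA was unbound. The lists hold no RNA level, so more binding per transcript and more *Myl1* RNA in myotubes cannot be told apart. The myoblast lists held no peak near the window on this strand. The nearest C2C12 peaks on the minus strand lay 4.67 Mb above it in both replicates, at chr1:71659337-71659391 in replicate A and at chr1:71659335-71659391 in replicate B, with log2 fold enrichments over input of 2.67 and 2.99. Neither myoblast list had a minus strand peak below the window. The nearest minus strand peaks outside the window in the differentiated lists were also far, 4.65 Mb above it in replicate A and 5.92 Mb above it in replicate B. The opposite strand of the window held 0 peaks in all 4 lists.

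The 40 peaks lay in a stretch of 11.8 kb, from chr1:66972112 to chr1:66983880, and fell into 6 clusters when peaks no more than 500 nt apart were linked. The 8.62 kb at the 5′ end of the window, next to the high coordinate, held no peak in any list. The clusters are numbered here from the 5′ end of the RNA. Cluster 1 was at chr1:66983791-66983880, cluster 2 at chr1:66981333-66982055, cluster 3 at chr1:66979970-66980530, cluster 4 at chr1:66978056-66978132, cluster 5 at chr1:66973357-66973450 and cluster 6 at chr1:66972112-66972203. The widest gap, 4605 nt without a peak, separated clusters 4 and 5.

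**Figure D1:**
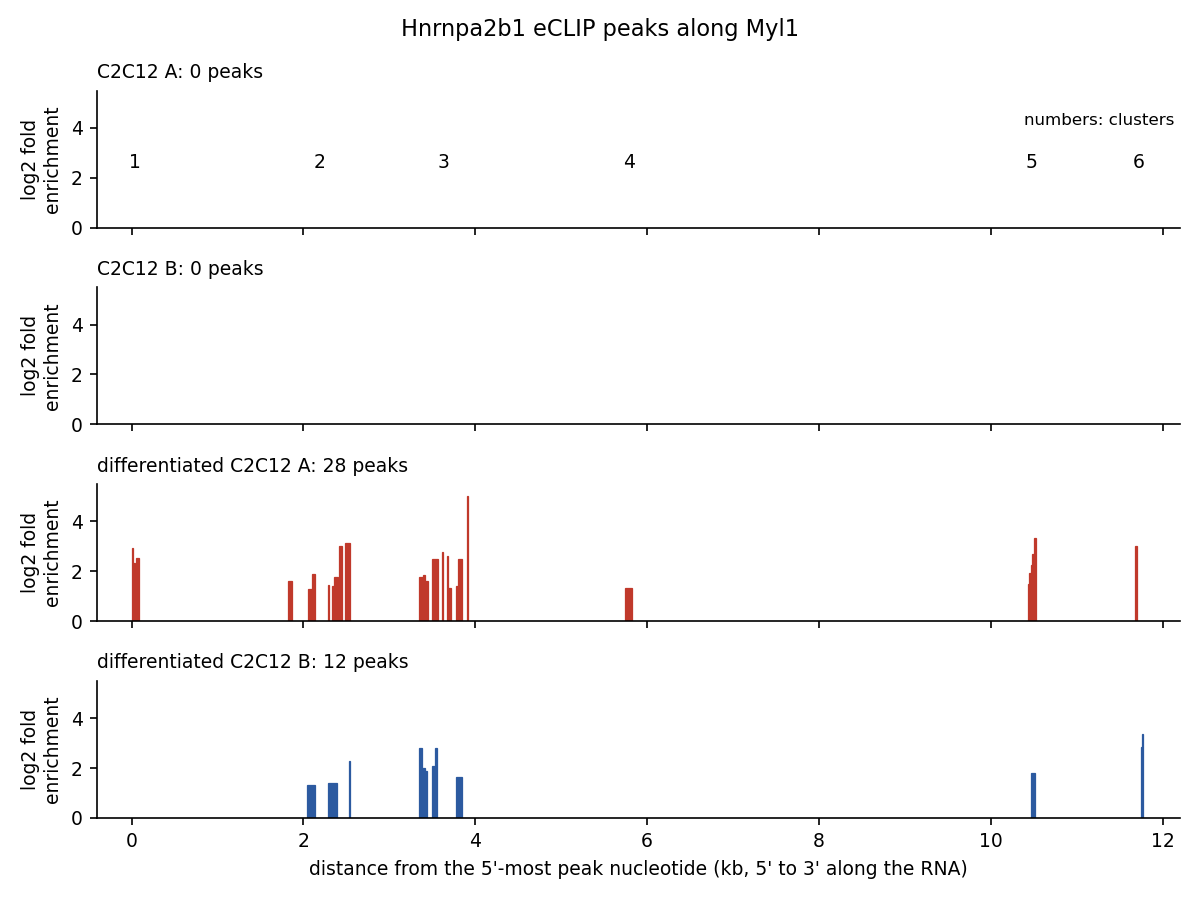
Peaks along *Myl1* in the 4 eCLIP libraries, drawn 5′ to 3′ along the RNA. The horizontal axis is the distance in kb from the 5′-most peak nucleotide, and each bar is 1 peak with its width on the axis and its log2 fold enrichment over size-matched input as height. Numbers mark the 6 clusters. Both C2C12 tracks are empty, and the differentiated C2C12 tracks hold 28 and 12 peaks.

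Most of the signal lay toward the 5′ side of this stretch. Clusters 2 and 3 together spanned 2086 nt, from 1825 to 3910 nt after the 5′-most peak nucleotide. They held 18 of 28 peaks and 69.3% of the covered nucleotides in replicate A, and 9 of 12 peaks and 87.0% of the covered nucleotides in replicate B. Cluster 3 had the most peaks in both myotube libraries, 10 in replicate A and 6 in replicate B. Cluster 2 followed with 8 and 3. Cluster 5, toward the 3′ end of the RNA, had 5 and 1, and cluster 6, the 3′-most, had 1 and 2. Clusters 1 and 4 had peaks in replicate A alone, with 3 and 1, so 4 of 6 clusters were seen in both replicates. Cluster 6 was the exception to the order of the replicates, since replicate B had more peaks there.

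**Figure D2:**
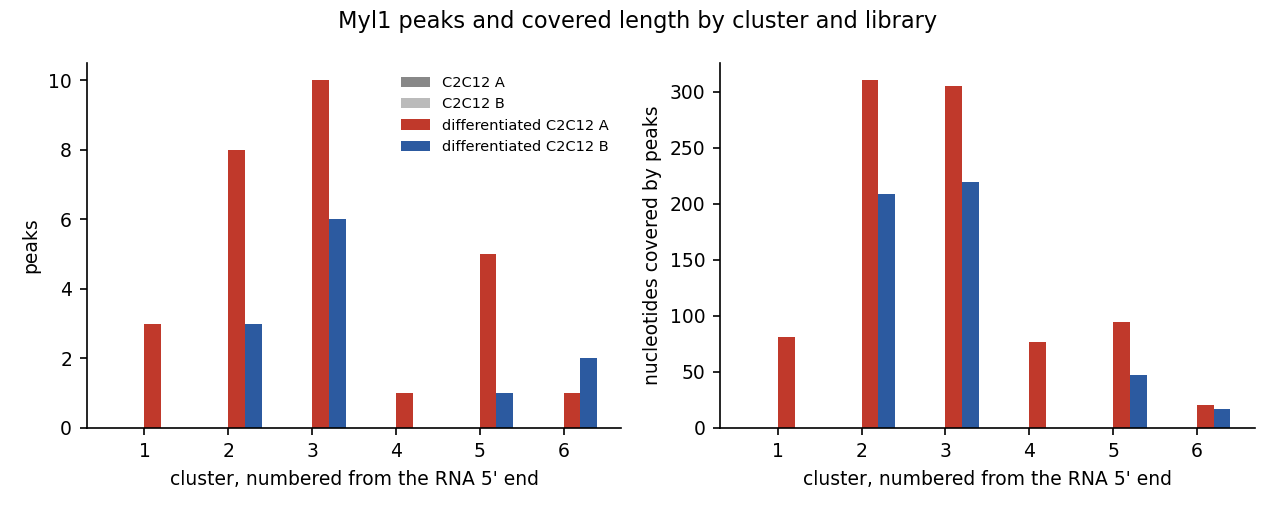
Number of *Myl1* peaks (left) and nucleotides they cover (right) in each of the 6 clusters, numbered from the RNA 5′ end, with 1 bar per library and no error bar because each bar is a single library. Clusters 2 and 3 are the tallest in both differentiated C2C12 libraries, clusters 1 and 4 have bars for replicate A only, and both C2C12 libraries are at 0 throughout.

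Which exons or introns lie under the clusters was not analysed here, since the gene models used are on GRCm38 and the peaks on mm9. Lengths can be set side by side without moving coordinates. In GENCODE M21 (GRCm38), *Myl1* lies on the minus strand at chr1:66924295-66945404, a length of 21.1 kb, and has 8 transcripts, of which 5 are protein-coding. The spliced coding transcripts are 571 to 1082 nt long and their longest exon has 352 nt. The longest exon of any transcript, 548 nt, belongs to one with a retained intron. The linked spans of cluster 2 (723 nt) and cluster 3 (561 nt) were each longer than every exon of that annotation, but they include sequence without a peak. In replicates A and B, peaks covered 310 and 209 nt of cluster 2 and 305 and 219 nt of cluster 3. The longest unbroken block had 102 nt, less than the longest coding exon. Clusters 1, 4, 5 and 6 were 77 to 94 nt long. These lengths cannot tell whether the peaks lie in exons or introns. The sequences under the peaks are not printed, since no genome of the files' build was used here.

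Replicate agreement on *Myl1* was then compared in each direction. Any same-strand overlap of 1 nt or more counted. In replicate A, 16 of 28 *Myl1* peaks (57.1%, exact 95% interval 37.2 to 75.5) were overlapped by replicate B, beside 72.0% of all peaks of that list. In replicate B, 10 of 12 (83.3%, 51.6 to 97.9) were overlapped by replicate A, beside 67.0% of all peaks. A few places supply many of the listed peaks. In replicate A 446 of 1499 peaks, and in replicate B 337 of 1211, lay at chr19:5796075-5802668 on the minus strand. Another 136 and 124 lay at chr19:5824777-5845479 on that strand, and 120 and 96 on the mitochondrial plus strand. List shares and medians given here and below count these peaks too, so they do not describe a typical bound gene. The *Myl1* share was below that of the list in the first direction and above it in the second. The list's value was inside the interval both times, but the intervals treat adjoining peaks as independent, so this is no test. When a larger part of each peak had to be shared, *Myl1* was below the list in both directions, as given below. Of the nucleotides covered on *Myl1*, 425 were covered in both replicates, which is 47.9% of those of replicate A and 86.4% of those of replicate B. Over all peaks these shares were 47.2% and 40.8%.

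The asymmetry in covered nucleotides comes from dividing the same 425 nt by a smaller *Myl1* total in replicate B. The whole list of replicate B covered more sequence than that of replicate A. The nucleotides covered in replicate B were 0.555 times those in replicate A on *Myl1* and 1.16 times over the whole lists. Among the 35 domains (peaks of the same strand up to 10 kb apart) with at least 10 peaks in the differentiated lists and a peak in both, the median of this ratio was 1.19, with a range of 0.519 to 13.5. *Myl1* was among the 2 lowest.

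The agreement differed between clusters. In cluster 3 all 6 peaks of replicate B and 6 of 10 peaks of replicate A were overlapped, with 215 nt covered in both and only 4 nt in replicate B alone. In cluster 2, 3 of 3 and 6 of 8 were overlapped, with 163 nt in both. In cluster 5 the single 47 nt peak of replicate B lay entirely inside the block of replicate A and overlapped 4 of its 5 peaks. In cluster 6 both libraries had peaks but 0 nt in common. The peak of replicate A was at chr1:66972184-66972203 with a log2 fold enrichment of 2.9999 and a −log10 p of 6.94. Replicate B had adjoining peaks at chr1:66972112-66972114 (log2 fold enrichment 3.36, −log10 p 8.58) and chr1:66972115-66972128 (2.86 and 6.82).

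**Figure D3:**
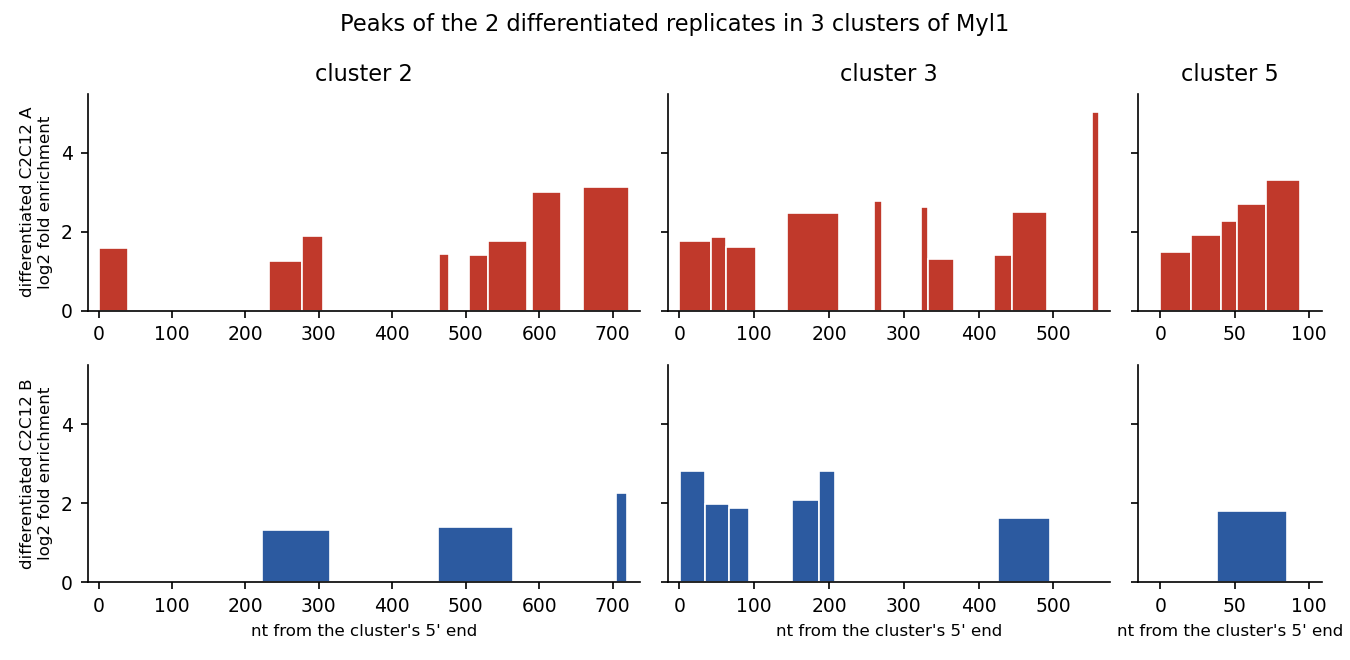
Peaks of differentiated C2C12 replicate A (top row) and replicate B (bottom row) in clusters 2, 3 and 5. The horizontal axis is nt from the 5′ end of the cluster, and each bar is 1 peak with its log2 fold enrichment over input as height. Peaks of replicate B sit over peaks of replicate A in all 3 clusters, and the 5 adjoining peaks of cluster 5 in replicate A step up from 1.48 to 3.32 toward the 3′ end.

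Merged over the 4 lists, touching or overlapping *Myl1* peaks formed 17 regions. Both myotube replicates and no myoblast library had a peak in 7 of them (41.2%), beside 19.8% of all 1015 regions of the series. Replicate A alone had a peak in 9 and replicate B alone in 1. The 7 shared regions were 3 in cluster 2, 3 in cluster 3 and 1 in cluster 5. They were at chr1:66981741-66981832, chr1:66981473-66981593 and chr1:66981333-66981395 in cluster 2, at chr1:66980429-66980530, chr1:66980318-66980386 and chr1:66980036-66980109 in cluster 3, and at chr1:66973357-66973450 in cluster 5.

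Enrichment over input was moderate on *Myl1*. In replicate A the log2 fold enrichment ran from 1.27 to 5.03 with a median of 2.09, and the median of the whole list was 1.87. In replicate B it ran from 1.31 to 3.36 with a median of 2.03, and the median of the list was 2.16. The *Myl1* medians of the replicates had a mean of 2.06 ± 0.0423 (SD, n = 2), a spread that leaves out the input's own error if the input was shared. They lay above the list's median in replicate A and below it in replicate B. Among peaks with a −log10 p below 400, as all *Myl1* peaks were, the list's medians were 1.85 in replicate A and 2.01 in replicate B. The *Myl1* medians lay above both of these, in replicate B only just. A log2 fold enrichment of at least 3 was reached by 3 of 28 *Myl1* peaks in replicate A (12.0% of the list) and by 1 of 12 in replicate B (20.1% of the list).

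The −log10 p of the *Myl1* peaks, from the authors' test of IP against input reads, ran from 5.12 to 16.2 in replicate A (median 7.41) and from 5.59 to 10.7 in replicate B (median 8.58). It was at least 8 in 11 of 28 peaks of replicate A, beside 64.0% of that list, and in 8 of 12 peaks of replicate B, beside 64.5%. A value of 8 is the minimum the published methods name, after a correction that the listed values may not carry. The value 400, where the scale stops, was listed for 554 and 444 peaks of these lists and for 0 *Myl1* peaks. The best *Myl1* peak ranked 729 of 1499 in replicate A and 657 of 1211 in replicate B. Among the peaks below 400 alone these ranks were 175 of 945 and 213 of 767. With each list shortened to its 591 best peaks by −log10 p, the length of the shortest list, 0 *Myl1* peaks remained in either replicate. Shortened to the same length by log2 fold enrichment, the lists kept 14 of 28 *Myl1* peaks in replicate A, beside 591 of all 1499. In replicate B they kept 5 of 12, beside 591 of all 1211.

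**Figure D4:**
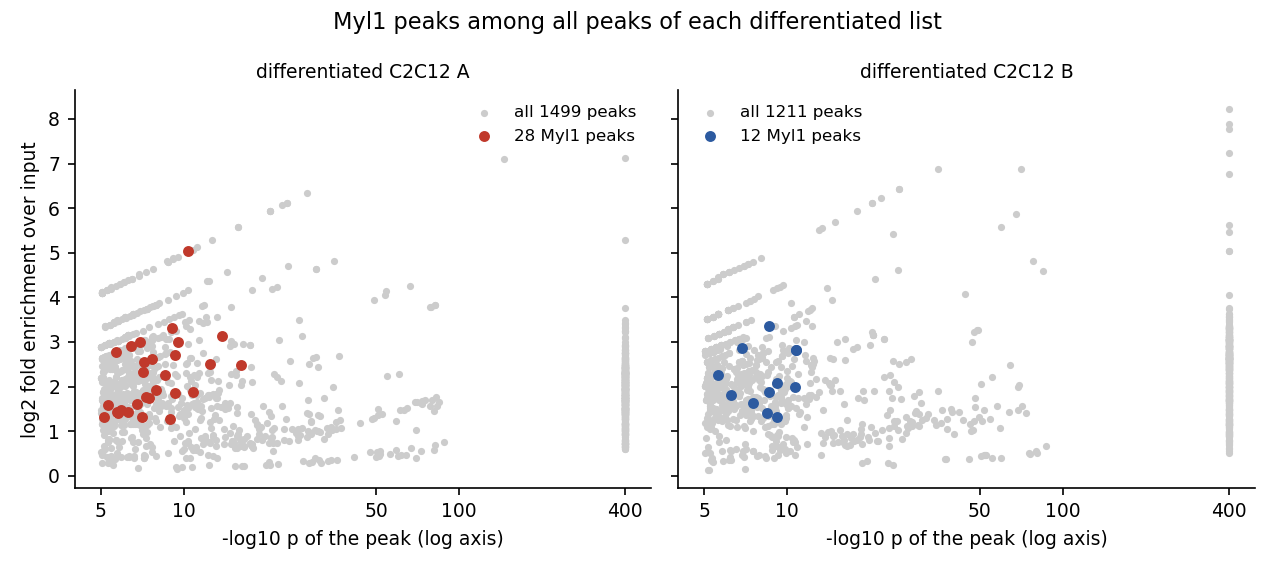
Log2 fold enrichment over input against −log10 p (log axis) for every peak of differentiated C2C12 replicate A (left) and replicate B (right), with all peaks in grey and *Myl1* peaks in colour. The *Myl1* peaks sit between 5.12 and 16.2 on the horizontal axis, in the lower range of both lists, and none is in the column of peaks at 400.

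The peak with the highest log2 fold enrichment, 5.03 (−log10 p 10.4), was a 9 nt peak of replicate A at the 3′ edge of cluster 3, chr1:66979970-66979978. It ranked 16 of 1499 by enrichment, and replicate B had no overlapping peak there. Next in replicate A came the 3′-most peak of cluster 5 at chr1:66973357-66973379, with 3.32. The 3′-most peak of cluster 2, at chr1:66981333-66981395, had 3.14 and a −log10 p of 13.8. That one was overlapped in replicate B by a 15 nt peak, chr1:66981336-66981350, with 2.27 and 5.59. A further peak of cluster 2, at chr1:66981426-66981465, had a log2 fold enrichment of 2.9999, just under 3 and equal to that of the replicate A peak in cluster 6. It had no overlapping peak in replicate B. The highest peak of replicate A was the 3′-most in clusters 2, 3 and 5 but the 5′-most in cluster 1, where it had 2.91. In replicate B it was the 3′-most in cluster 2, whereas in cluster 3 the 3′-most peak, chr1:66980036-66980104, was the lowest with 1.63.

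By −log10 p the strongest *Myl1* peak of replicate A was the 69 nt peak at chr1:66980318-66980386 in cluster 3, with 16.2 and a log2 fold enrichment of 2.49. Replicate B divided the same place into adjoining peaks, chr1:66980323-66980343 (log2 fold enrichment 2.82, −log10 p 10.7) and chr1:66980344-66980380 (2.08 and 9.16). The strongest values of replicate B, 10.7, were shared by the first of these and by chr1:66980496-66980529, also in cluster 3, with the same log2 fold enrichment of 2.82. Between them on the RNA lay chr1:66980465-66980495, with 1.99 and 10.7. Cluster 3 therefore held the peak with the highest −log10 p in both libraries. In replicate A the cluster 2 peak with 13.8 was next, then chr1:66980040-66980086 of cluster 3 with a −log10 p of 12.5 and a log2 fold enrichment of 2.50, and chr1:66981750-66981778 of cluster 2 had 10.8 and 1.88. The latter lay inside a 92 nt peak of replicate B, chr1:66981741-66981832, with 9.14 and 1.31.

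Enrichments were set side by side where both replicates had a peak, with the input possibly shared between them. Of the overlapping *Myl1* peaks, 9 pairs were each other's best overlap. Replicate A was higher in 5 and replicate B in 4, and the difference in log2 fold enrichment, A minus B, ran from -1.05 to 0.90 with a median of 0.34. It was under 0.5 in size in 5 of 9 pairs. In replicate A the 16 peaks that replicate B overlapped had a median log2 fold enrichment of 1.87 and a median −log10 p of 8.73. The 12 without an overlap had a higher median enrichment, 2.58, and a lower median −log10 p, 6.98.

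The peaks were short and often adjoined each other. The median width was 26 nt in replicate A and 32.5 nt in replicate B, beside 19 and 30 nt over the lists. Another peak of the same list touched or overlapped 18 of 28 *Myl1* peaks in replicate A (70.6% of the list) and 7 of 12 in replicate B (65.0% of the list). Joining them left 17 blocks in replicate A and 8 in replicate B, the longest of 102 nt in each. The longest run of adjoining peaks was cluster 5 of replicate A, with 5. From 5′ to 3′ along the RNA their log2 fold enrichments were 1.48, 1.92, 2.26, 2.70 and 3.32, so each was above the one before it. Replicate B had 1 peak over this run, with 1.81. Of the 65 runs of at least 5 adjoining peaks in the list of replicate A, 4 rose or fell throughout. The run was singled out after its values were seen.

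Among the 517 domains of the series, a peak in both differentiated replicates and in no C2C12 library was found for 106 (20.5%), and *Myl1* held the most peaks of these, 40 against a median of 4. By number of peaks it ranked 5 in differentiated replicate A and 8 in replicate B. The domain with the most similar peak numbers, by the distance of log2(peak number + 1) over the 4 libraries, was on the minus strand at chr8:11619513-11628345 (distance 0.938), with 15 and 9 myotube peaks and 0 myoblast peaks. The next were on the minus strand at chr19:5717812-5719807 (1.23), with 18 and 16, and on the plus strand at chr18:32580621-32594769 (1.38), with 14 and 11, and both had 1 peak in C2C12 replicate A. The medians of log2 fold enrichment in these domains were 1.31 and 1.43, 1.94 and 2.24, and 1.65 and 1.63 in replicates A and B. In each of them replicate B covered more nucleotides than replicate A, where on *Myl1* it covered fewer. Whether these domains differ from *Myl1* beyond the spread between replicates was not tested. Other contractile protein genes of the fast muscle fibre were not located here, for want of an annotation of the same build.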

How the data were processed

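The authors removed adapters and reads from repetitive elements, aligned the rest to mm9 with STAR, removed PCR duplicates by start position and random barcode, and called peaks in each replicate with CLIPper. For each peak they deposited the −log10 of a p-value for IP against size-matched input reads, and the log2 fold enrichment of IP over input. The files have 6 columns and no header, so these meanings come from the values and the study's methods. The methods call a peak significant at a Bonferroni-corrected −log10 p above 8, but the deposited values run from 5 to 400, and whether they carry that correction is not known, so all listed peaks were used and a minimum of 8 was an alternative. That test favours abundant RNAs and deep libraries, so peak numbers depend on RNA level and depth, neither of which the lists give. The precision of single peaks is therefore unknown.

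Starts were made 1-based. On chromosome 7, 74 peaks end beyond the length of the GRCm38 chromosome (145441459), so mm9 coordinates were neither converted nor set against GRCm38 positions. Peaks up to 500 nt apart formed clusters, and peaks up to 10 kb apart domains. Peaks in full are the 5 best of each differentiated list by log2 fold enrichment and by −log10 p, and those of clusters with at most 3 peaks seen in both replicates; similar domains are the 3 nearest in peak numbers. *Myl1* and these rules were chosen with earlier results of these data known. With 2 libraries a state an exact permutation test cannot reach significance, and none was run. Nothing in the sources says that same-lettered replicates share a batch. Overlap counting was checked on lists of 497 and 471 merged differentiated peaks against copies with peaks left in place or moved far away. Of these peaks, 100% were scored correctly, but the copies held no partial overlap. On *Myl1* the counting gave the same counts as bedtools 2.31.1. Scripts ran in Python 3.11.15 (numpy 2.4.6, pandas 2.3.3, matplotlib 3.10.9, scipy 1.17.1). As alternatives, stricter minimums, other links and overlaps, a wider window, merged peaks and single replicates were tried.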

Additional observations from a re-analysis of the deposited data

How the results depend on the processing

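No paired analysis was possible because the values come from no fitted model and no test. C2C12 had 0 *Myl1* peaks under every alternative run. Only the wider window could have changed this, since the other alternatives filter, merge or drop peaks and start from 0. A stricter minimum of 8 for −log10 p lowered the mean number of *Myl1* peaks in differentiated C2C12 from 20 to 9.50, the covered nucleotides to 361, the pooled replicate overlap from 65% to 42.1% and the 7 regions shared by the myotube replicates alone to 3, and it moved the median log2 fold enrichment from 2.06 to 2.27. A minimum of 3 for the log2 fold enrichment left a mean of 2 peaks, 49 nt, an overlap of 0% and 0 shared regions. Merging touching peaks gave a mean of 12.5, and cutting all lists to equal length, chosen after seeing the data, gave 0 by −log10 p and 9.50 by log2 fold enrichment. Widening the window added no peak. The 6 clusters became 2 when peaks were linked up to 2 kb. The overlap was 25% when 50% of both peaks had to be shared, 0% for identical ends and 87.5% within 100 nt. With 50% shared, replicate A had 17.9% (exact 95% interval 6.06 to 36.9) beside 41.8% of its whole list, which lay outside the interval. Replicate B had 41.7% (15.2 to 72.3) beside 51.2%. Identical ends were found for 4.67% and 5.78% of the lists of replicates A and B. Within 100 nt the order reversed, with 82.1% beside 79.7% in replicate A and 100% beside 77.1% in replicate B. The intervals treat adjoining peaks as independent and are no test. Weighting by width gave a median log2 fold enrichment of 1.76, and 17 regions counted when 1 myotube replicate sufficed.

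Leaving out a replicate gave 12 to 28 peaks, 492 to 887 nt, 4 to 6 clusters and medians of 2.03 to 2.09, where the lower number of peaks, nucleotides and clusters is the value without differentiated replicate A. Stricter minimums leave fewer peaks by construction, and the cause of the other shifts was not tested. Depth is unknown, so what it limits cannot be given.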
